A study of Homo sapiens with 5 samples.

Results

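The keratin genes were followed through RNA sequencing of 5 human cell lines, as the rows of the deposited expression table whose gene name is KRT with a number and an optional letter from A to C. There were 56 such rows for 55 gene symbols, of 57905 genes in the table, because KRT222 has 2 gene identifiers. MCC13, MKL-1, MKL-2 and WaGa were lines from Merkel cell carcinoma, a neuroendocrine skin cancer, and REH was a line from pre-B-cell acute lymphoblastic leukemia. The labels give all 5 lines the genotype WT and name no treatment, and all were grown in RPMI medium with serum. Each line is an established culture represented by 1 library, so n counts lines, each SD is a spread between lines, and a line cannot be told apart from its library. The values are TPM (transcript abundance scaled for gene length, with the same sum in each library), which keep no read depth, so the depth behind a gene was unknown. Between 15949 and 16921 genes reached 1 TPM in a line.

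The labels were set against marker genes. MKL-1, MKL-2 and WaGa had all 9 Merkel cell markers, KRT20 among them, at 1 TPM or more, with summed levels of 3824, 4208 and 7448 TPM, whereas MCC13 had 2 of 9 with a summed level of 10.1 TPM and REH had 1 of 9. ATOH1, the transcription factor that specifies Merkel cells, was listed at 0 in MCC13. Mesenchymal markers summed to 8651 TPM in MCC13, against sums of between 12.3 and 18.4 TPM in the other 3 Merkel cell carcinoma lines, and to 962 TPM in REH. Of 7 pre-B markers, 6 reached 1 TPM in REH, against 2 for MKL-1, 3 each for MKL-2 and WaGa, and 1 for MCC13. Their summed levels were 3586 TPM in REH, with MKL-1 at 157, MKL-2 at 136, WaGa at 96.0 and MCC13 at 2.70 TPM. PAX5 and EBF1, which stood at 186 and 120 TPM in REH, were also present outside it. Across MKL-1, MKL-2 and WaGa, PAX5 ranged from 38.4 to 91.9 TPM and EBF1 from 52.7 to 64.6 TPM. Neither exceeded 0.023 TPM in MCC13. The part of the marker differences in the keratin results was not tested, and fewer cells with a transcript cannot be told apart from less of it per cell.

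Keratins are the intermediate filament proteins of epithelial cells. A filament forms from pairs of a type I (acidic) and a type II (basic) chain, and different epithelia use different pairs. Simple epithelia use KRT8 with KRT18, often joined by KRT7, KRT19 or KRT20, basal cells of stratified epithelia use KRT5 with KRT14 and KRT15, the suprabasal layers switch to pairs such as KRT1 with KRT10, injured or activated epidermis induces KRT6, KRT16 and KRT17, and the hair follicle has keratins of its own. Merkel cells of the skin carry simple keratins, and KRT20 staining is used to diagnose Merkel cell carcinoma. The 56 rows comprised 5 simple, 3 basal, 17 suprabasal (5 of them the inducible KRT6A, KRT6B, KRT6C, KRT16 and KRT17), 26 hair and 5 other keratins, with 30 of type I and 26 of type II.

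Upstream sequence is shown for 3 keratin genes whose levels follow different patterns described below. KRT20 was expressed in 3 of the 4 Merkel cell carcinoma lines, KRT10 in all 5 lines and KRT32 in MCC13. Each window holds the 250 bases before the gene's RefSeq start (GRCh38.p14), read 5′ to 3′ on the minus strand, at chr17:40885243-40885492 for KRT20, chr17:40822615-40822864 for KRT10 and chr17:41467387-41467636 for KRT32. Capitals mark the letters TATAAA, the core of the TATA box.
KRT20: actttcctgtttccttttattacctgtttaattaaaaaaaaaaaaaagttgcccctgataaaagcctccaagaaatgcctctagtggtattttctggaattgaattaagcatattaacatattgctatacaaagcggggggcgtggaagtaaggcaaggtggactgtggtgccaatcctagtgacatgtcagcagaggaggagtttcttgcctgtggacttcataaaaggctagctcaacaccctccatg
KRT10: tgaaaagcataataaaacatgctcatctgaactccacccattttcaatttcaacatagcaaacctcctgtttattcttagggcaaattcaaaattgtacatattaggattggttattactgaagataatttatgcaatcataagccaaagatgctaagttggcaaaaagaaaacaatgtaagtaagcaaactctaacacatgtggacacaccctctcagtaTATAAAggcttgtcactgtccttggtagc
KRT32: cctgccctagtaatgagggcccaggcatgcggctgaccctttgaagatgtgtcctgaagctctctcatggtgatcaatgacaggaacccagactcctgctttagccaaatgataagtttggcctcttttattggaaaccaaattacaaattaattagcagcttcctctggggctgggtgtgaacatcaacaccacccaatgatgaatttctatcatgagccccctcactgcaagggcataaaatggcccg
KRT10 held TATAAA at 29 bases before the start, and the windows of KRT20 and KRT32 did not hold these letters on either strand. TATAAA occurred in 21 of 38 windows of keratin genes (34 of the 55 symbols matched, some with several starts), or 55.3%, and in 10.7% of all 35116 RefSeq windows of this length. Of the 22 keratin symbols that reached 1 TPM in some line, only 10 had a window, so these shares leave out many expressed keratins. The E-box letters CANNTG, the core bound by basic helix-loop-helix factors such as ATOH1, occurred in 30 of the 38 keratin windows and in 61.8% of all windows, with 0 matches in KRT20, 3 in KRT10 and 1 in KRT32. These are exact matches of letters and say nothing of binding. Near matches of the TATA box were not sought, so a window without TATAAA may still hold a similar element.

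KRT20, the diagnostic keratin, was listed at 0 TPM in MCC13, with MKL-1 at 14.5 TPM, MKL-2 at 203 TPM and WaGa at 466 TPM, and was listed at 0 in REH. MCC13 thus lay below all 3 other Merkel cell carcinoma lines, but these 3 differed among themselves by 32.2-fold, with MKL-1 far below MKL-2 and WaGa. The difference in log2(TPM + 1) between MCC13 and the other 3 was -6.83 ± 2.31 (SE, limma, adjusted p = 0.193), which did not pass. The level of KRT20 ranked 259th of all genes in WaGa, 853rd in MKL-2 and 9728th in MKL-1. KRT20 shared no run of 50 bases with transcripts of other genes in GENCODE 29.

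KRT8 and KRT18, the pair of simple epithelia, were present in all 4 Merkel cell carcinoma lines, MCC13 included, and listed at 0 in REH. KRT8 stood at 313 TPM in MCC13, with MKL-1 at 374 TPM, MKL-2 at 795 TPM and WaGa at 974 TPM. KRT18 stood at 229 TPM in MCC13, with MKL-1 at 86.4 TPM, MKL-2 at 239 TPM and WaGa at 185 TPM. For KRT8 MCC13 was the lowest of the 4 lines, while for KRT18 it lay inside the range of the other 3. Neither difference between MCC13 and those 3 passed (KRT8 -1.08 ± 0.68, limma, adjusted p = 0.401, and KRT18 0.55 ± 0.70, limma, adjusted p = 0.659).

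KRT19, the smallest type I keratin, stood at 2.95 TPM in MCC13, with MKL-1 at 51.7 TPM, MKL-2 at 206 TPM and WaGa at 179 TPM, and had a listed 0 in REH. The lowest of the 3 lines was 17.5-fold above MCC13. The log2 difference of MCC13 from the 3 was -4.98 ± 0.99 (SE, limma, adjusted p = 0.0895), short of the threshold of 0.05. KRT7, the type II keratin of ducts and glands, ran the other way, at 27.5 TPM in MCC13, with MKL-1 at 0.410 TPM, MKL-2 at 6.05 TPM and WaGa at 0.716 TPM, and a listed 0 in REH. Its difference was 3.47 ± 1.19 (SE, limma, adjusted p = 0.195).

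**Figure D1:**
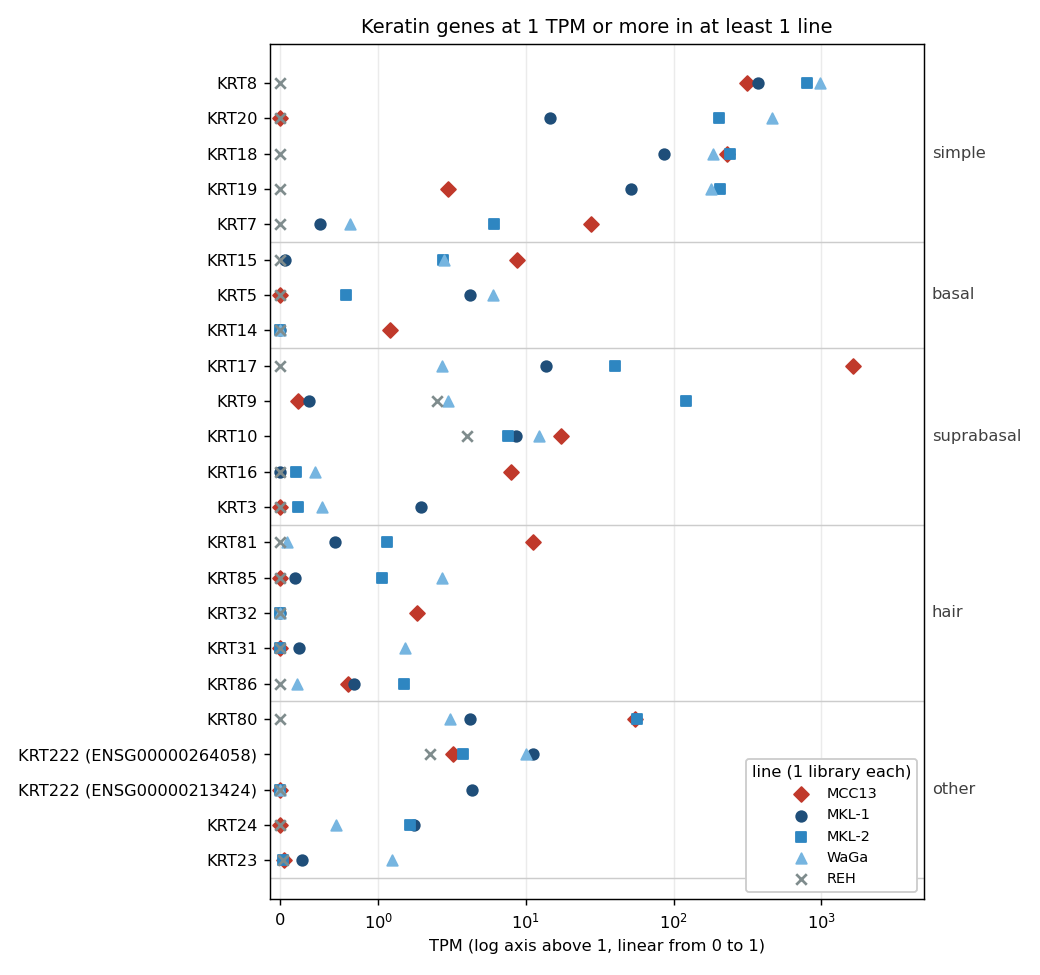
TPM of the 23 keratin rows that reached 1 TPM in at least 1 of the 5 lines, 1 point per line, grouped by class and ordered by their highest value within a class. The axis is logarithmic above 1 TPM and linear from 0 to 1. KRT8 and KRT18 lie to the right in all 4 Merkel cell carcinoma lines, KRT20 is at 0 in MCC13, and KRT17 reaches 1649 TPM in MCC13.

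KRT17, a type I keratin induced in wounded and activated epidermis and present in basal cells of glands and appendages, was the most abundant keratin of MCC13. It stood at 1649 TPM in MCC13, with MKL-1 at 13.6 TPM, MKL-2 at 40.1 TPM and WaGa at 2.71 TPM, and was listed at 0 in REH. In MCC13 it was 41.1-fold above the highest of the other 3 lines and ranked 56th of all genes. The log2 difference was 6.98 ± 1.57 (SE) and did not pass (limma, adjusted p = 0.108), with the other 3 lines spread over 14.8-fold. The KRT17 pseudogenes KRT17P1 and KRT17P2, which share 5.56% and 4.88% of the 50-base runs of KRT17, stood at 0.311 and 1.40 TPM in MCC13 and between 0.312 and 4.10 TPM among MKL-1, MKL-2 and WaGa.

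KRT16, another inducible type I keratin, stood at 7.88 TPM in MCC13, with MKL-1 at a listed 0, MKL-2 at 0.161 TPM and WaGa at 0.352 TPM, and a listed 0 in REH. It was higher in MCC13 by 2.93 ± 0.26 on the log2(TPM + 1) scale (SE, limma, adjusted p = 0.0178). The level of KRT16 in MCC13 was far below that of KRT17 in the same library. KRT16 shares 16.5% of its 50-base runs with 13 other genes, among them 9.18% with the pseudogene KRT16P3 and 7.44% with KRT14. Its level is therefore uncertain, by an amount that these shares do not give. The type II keratins KRT6A, KRT6B and KRT6C, with which KRT16 and KRT17 pair in activated epidermis, were listed at 0 in MCC13 and REH and did not exceed 0.412 TPM in any line.

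Among the basal keratins no line expressed KRT5 together with KRT14 at 1 TPM or more. KRT5, the type II chain, was listed at 0 in MCC13, with MKL-1 at 4.19 TPM, MKL-2 at 0.676 TPM and WaGa at 5.95 TPM, and was listed at 0 in REH (MCC13 over the other 3, -1.97 ± 1.004 (SE), limma, adjusted p = 0.320). KRT14, its type I partner, stood at 1.19 TPM in MCC13 and was listed at 0 in the other 4 lines, a log2 difference of 1.13 ± 0.10 from the other 3 Merkel cell carcinoma lines (SE, limma, adjusted p = 0.0165). KRT14 shares 7.89% of its 50-base runs with KRT16, which had 7.88 TPM in the same line. KRT15, a basal type I keratin also found in the hair follicle bulge, stood at 8.66 TPM in MCC13, with MKL-1 at 0.047 TPM, MKL-2 at 2.74 TPM and WaGa at 2.81 TPM, and a listed 0 in REH (1.97 ± 1.003 (SE), limma, adjusted p = 0.320).

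Of 12 keratins of terminal differentiation, KRT10, KRT9 and KRT3 reached 1 TPM in some line. KRT10, the type I keratin of the spinous layer, was present in every line, at 17.2 TPM in MCC13, with MKL-1 at 8.55 TPM, MKL-2 at 7.54 TPM and WaGa at 12.2 TPM, and REH at 4.02 TPM. Its values in the Merkel cell carcinoma lines, 11.4 ± 4.39 TPM (SD, n = 4), all lay above REH, with a log2 difference of 1.24 ± 0.65 that did not pass (SE, limma, adjusted p = 0.427). KRT1, its type II partner in epidermis, did not exceed 0.068 TPM in any line.

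KRT9, the type I keratin of palm and sole epidermis, stood at 0.184 TPM in MCC13, with MKL-1 at 0.298 TPM, MKL-2 at 120 TPM and WaGa at 2.97 TPM, and REH at 2.48 TPM. MKL-2 alone was high. The difference of the Merkel cell carcinoma lines from REH was 0.58 ± 2.87 (SE, limma, adjusted p = 0.931) and became -0.93 without MKL-2 (limma, adjusted p = 0.699). KRT3, the type II keratin of cornea, was listed at 0 in MCC13, with MKL-1 at 1.94 TPM, MKL-2 at 0.182 TPM and WaGa at 0.425 TPM, and REH at 0.003 TPM. The corneal type I partner KRT12 reached 0.650 TPM in MKL-2.

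Of 26 hair keratins, 10 were listed at 0 in all 5 lines, 5 reached 1 TPM in some line, and none was above 0 in REH. KRT81, a type II keratin of the hair cortex, stood at 11.2 TPM in MCC13, with MKL-1 at 0.562 TPM, MKL-2 at 1.15 TPM and WaGa at 0.073 TPM, and did not pass (2.99 ± 0.51 (SE), limma, adjusted p = 0.0666). With a pseudocount of 5 TPM it did (limma, adjusted p = 0.0249). KRT81 shares 37.6% of its 50-base runs with the neighbouring KRT86, so reads may have been split between them. KRT86 stood at 0.693 TPM in MCC13, with MKL-1 at 0.750 TPM, MKL-2 at 1.49 TPM and WaGa at 0.170 TPM, and a listed 0 in REH.

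KRT32, a type I keratin of the hair cuticle, stood at 1.82 TPM in MCC13 and was listed at 0 in the other 4 lines, and was higher in MCC13 by 1.497 ± 0.10 (SE, limma, adjusted p = 0.0120). KRT85, a type II keratin of the hair matrix, was listed at 0 in MCC13 and REH, with MKL-1 at 0.154 TPM, MKL-2 at 1.05 TPM and WaGa at 2.71 TPM. KRT31, a type I keratin of the hair cortex, was listed at 0 in MCC13, MKL-2 and REH, with MKL-1 at 0.195 TPM and WaGa at 1.52 TPM. The 9 keratins of the follicle sheaths did not exceed 0.088 TPM.

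The 5 rows outside these classes all reached 1 TPM in some line. KRT80, a type II keratin of broad epithelial distribution, stood at 55.2 TPM in MCC13, with MKL-1 at 4.17 TPM, MKL-2 at 56.9 TPM and WaGa at 3.06 TPM, and was listed at 0 in REH. MCC13 and MKL-2 lay close together, well above MKL-1 and WaGa, and the difference of MCC13 from the other 3 did not pass (2.396 ± 1.92 (SE), limma, adjusted p = 0.494). KRT24, a type I keratin, was listed at 0 in MCC13, with MKL-1 at 1.76 TPM, MKL-2 at 1.65 TPM and WaGa at 0.565 TPM, and a listed 0 in REH. KRT23, another type I keratin, stood at 0.040 TPM in MCC13, with MKL-1 at 0.229 TPM, MKL-2 at 0.032 TPM and WaGa at 1.23 TPM, and REH at 0.034 TPM.

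KRT222, a type I keratin relative, was listed under 2 identifiers. The row ENSG00000264058 stood at 3.20 TPM in MCC13, with MKL-1 at 11.1 TPM, MKL-2 at 3.78 TPM and WaGa at 10.1 TPM, and REH at 2.24 TPM, but in GENCODE 29 this identifier is named AC073508.2 and shares 66.5% of its 50-base runs with SMARCE1, a chromatin remodelling gene. The row ENSG00000213424, named KRT222 in GENCODE 29, stood at 4.29 TPM in MKL-1 and was listed at 0 in the other 4 lines. The level of KRT222 itself is therefore uncertain.

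Summed over all 56 rows, keratin transcripts came to 2330 TPM in MCC13, with MKL-1 at 579 TPM, MKL-2 at 1689 TPM and WaGa at 1852 TPM, against 8.80 TPM in REH. The class that made up this sum differed. Simple keratins gave 24.6% of it in MCC13, against 90.9% in MKL-1, 85.8% in MKL-2 and 97.4% in WaGa. Suprabasal keratins gave 71.9% in MCC13, of which KRT17 was nearly all (70.8% of the keratin sum), against 4.30% in MKL-1, 10.0% in MKL-2, where KRT9 was the largest term, and 1.05% in WaGa. KRT20 gave 0% in MCC13, 2.50% in MKL-1, 12.04% in MKL-2 and 25.1% in WaGa.

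The balance between the types also differed between the lines. Type I keratins summed to 1923 TPM and type II to 407 TPM in MCC13, a ratio of 4.72. The ratio was 0.4998 in MKL-1 (193 against 386 TPM), 0.957 in MKL-2 (826 against 863 TPM) and 0.875 in WaGa (864 against 987 TPM). In REH the type I sum of 8.80 TPM stood against a type II sum of 0.008 TPM. This type I sum includes 2.24 TPM of the row ENSG00000264058, which may not be KRT222. Without KRT8 and KRT18 the order of the lines changed, with ratios of 17.9 in MCC13, 8.39 in MKL-1, 8.62 in MKL-2 and 49.2 in WaGa. RNA sums do not give the balance of the proteins.

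**Figure D2:**
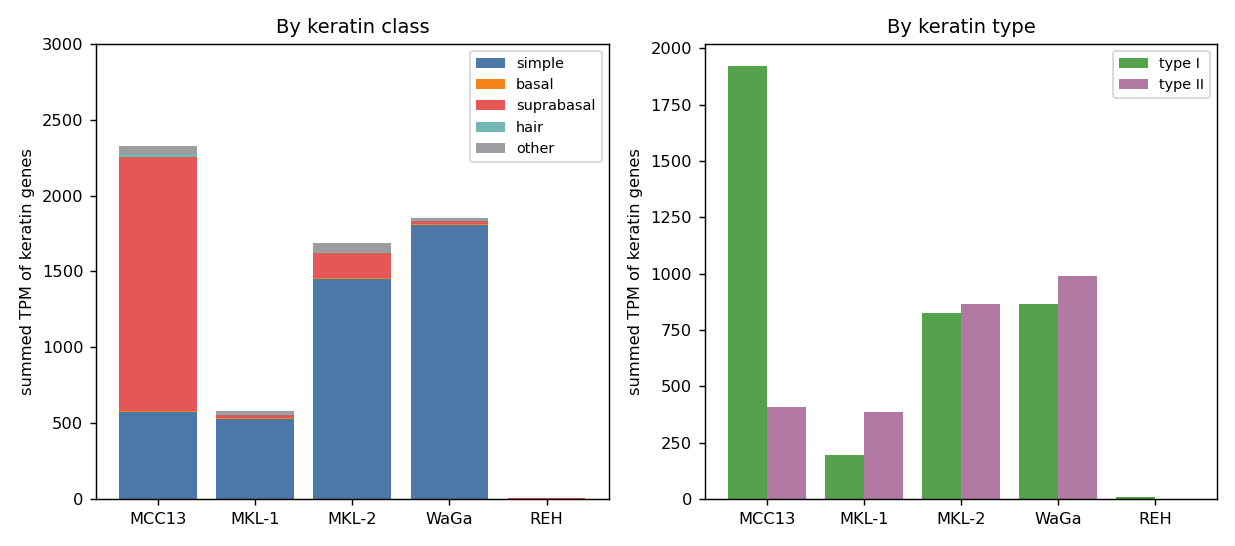
Summed TPM of the 56 keratin rows in each line (1 library each), stacked by class on the left and split into type I and type II on the right, both on linear axes from 0. MCC13 has the tallest bar, made mostly of the suprabasal class, of which KRT17 is nearly all (70.8% of the keratin sum). Of the 4 Merkel cell carcinoma lines, MCC13 alone has more type I (1923 TPM) than type II (407 TPM).

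The 4 Merkel cell carcinoma lines were set against REH to see which keratins separate the tumour type from the leukemia line. Of 23 tested rows the Merkel cell carcinoma lines had 2 at higher levels, the simple keratins KRT8 by 9.10 ± 0.76 (SE, limma, adjusted p = 0.00826) and KRT18 by 7.44 ± 0.66 (SE, limma, adjusted p = 0.00962). KRT8 averaged 614 ± 322 TPM and KRT18 185 ± 69.8 TPM (SD, n = 4) in the Merkel cell carcinoma lines, all 4 above the listed 0 of REH. Over all 22250 genes tested, 1.09% were called higher and 4.15% lower. The other 21 rows did not pass. None was called lower by limma, with 0 at an unadjusted p under 0.05. KRT19 (5.72 ± 2.41, SE, limma, adjusted p = 0.318), KRT17 (5.45 ± 3.42, SE, limma, adjusted p = 0.505) and KRT20 (5.12 ± 3.63, SE, limma, adjusted p = 0.551) had differences with wide errors.

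Both comparisons were fitted on log2(TPM + 1) to every gene that reached 1 TPM in a compared line, with Benjamini-Hochberg adjustment over all of these. The median log2 difference was 1.15 over the 23 tested keratin rows and 0.18 over all genes tested, but a keratin reached 1 TPM mostly through the Merkel cell carcinoma lines, KRT8 and KRT18 included, so neither this median nor the count of calls carries weight of its own. Without MKL-1, MKL-2 or WaGa no gene of any kind was called, and KRT8 and KRT18 then had limma adjusted p from 0.0649 to 0.0802. Without MCC13, KRT19 was called as well (6.97, limma, adjusted p = 0.0382). With REH as a lone library, the smallest p that an exact permutation test allows is 0.2.

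A listed 0 may be a failed estimate rather than absence. REH listed 21 genes at 0 that stood at 50 TPM or more in every Merkel cell carcinoma line, KRT8 and KRT18 among them. Another was MTX2, a mitochondrial import gene, at 66.6 TPM in MCC13 and between 80.0 and 111 TPM among MKL-1, MKL-2 and WaGa. How many genes stood at 50 TPM or more in every Merkel cell carcinoma line was not counted, so the share of such zeros is unknown.

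MCC13 was compared with MKL-1, MKL-2 and WaGa to ask how its keratins differ within the tumour type. Of 23 tested rows 3 were higher in MCC13, the type I keratins KRT16, KRT14 and KRT32. Over all 20698 genes tested, 6.47% were called higher and 2.47% lower. The 3 keratins were low in absolute terms and were tested only because MCC13 reached 1 TPM, so they had to lie higher there and their count supports nothing by itself. KRT14 and KRT32 were listed at 0 in the other 3 lines (SD 0), so their standard errors rest on the spread borrowed from other genes. KRT17, KRT20 and KRT19 had larger differences, which did not pass. No keratin was called lower by limma, with 1 at an unadjusted p under 0.05, namely KRT19.

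The median log2 difference was -0.44 over the keratin rows and -0.30 over all genes tested. The call of KRT16 was lost with a pseudocount of 0.1 TPM (limma, adjusted p = 0.0908), and those of KRT14 and KRT32 were lost without a variance trend (limma, adjusted p = 0.081 and 0.0539). Leaving out MKL-1, MKL-2 or WaGa left no gene called. MCC13, a lone library, was taken to vary like the other 3, and the smallest p that an exact permutation test allows here is 0.25. Both comparisons share the 4 Merkel cell carcinoma lines.

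**Figure D3:**
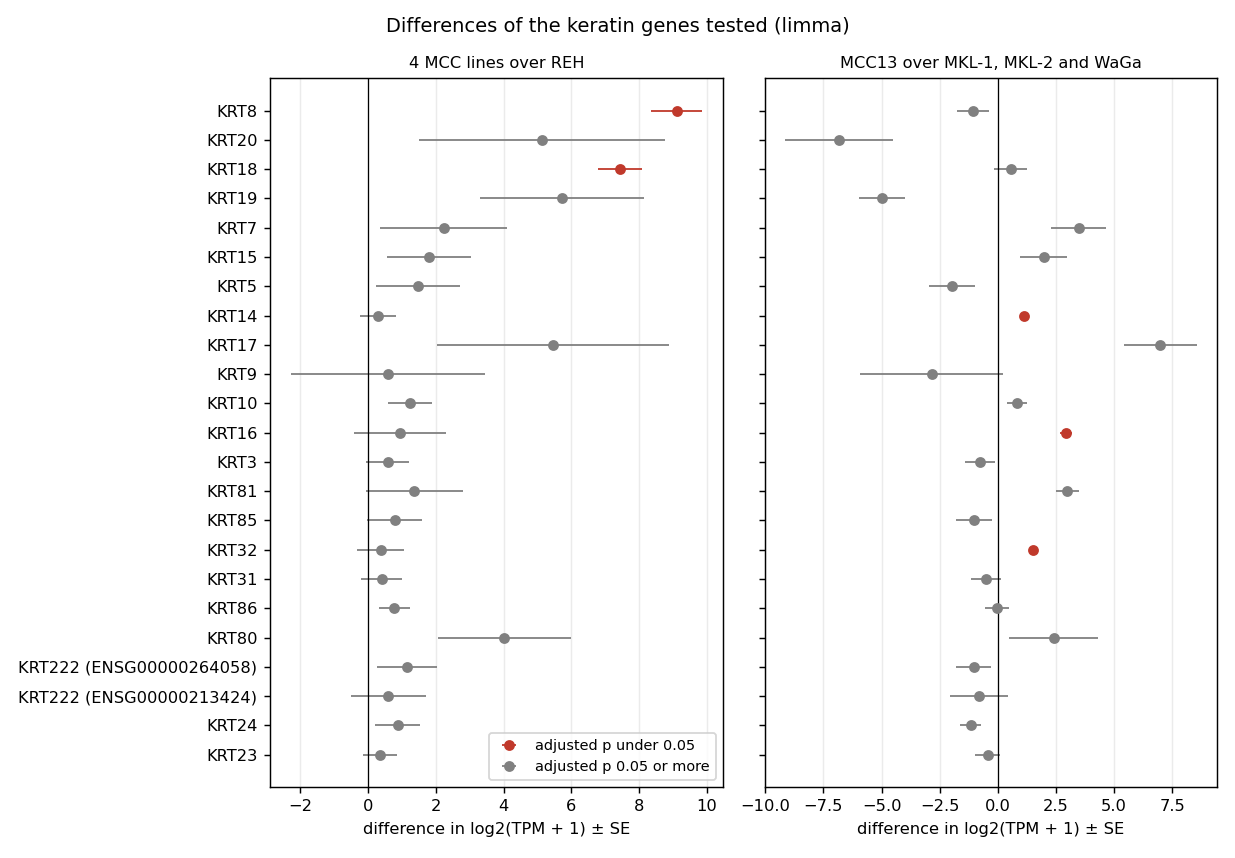
Differences in log2(TPM + 1) with their standard errors (limma) for the 23 tested keratin rows, for the 4 Merkel cell carcinoma lines over REH on the left and for MCC13 over the other 3 lines on the right, with calls in red. KRT8 and KRT18 are called on the left, and KRT14, KRT16 and KRT32 on the right, while on the right KRT17 (6.98) and KRT20 (-6.83) lie farthest from 0 with wide errors.

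The keratin genes lie in 2 clusters. All 26 type II rows and KRT18 are on chromosome 12, and the other 29 type I rows are on chromosome 17. On chromosome 17 the neighbours of KRT20 in GENCODE 29 order, KRT12 and KRT23, stood at most at 0.650 and 1.23 TPM, beside 466 TPM for KRT20 itself. The stretch KRT15, KRT19, KRT9, KRT14, KRT16 and KRT17 held neighbours with different patterns. There KRT17 stood above 50 TPM in MCC13, KRT9 in MKL-2, and KRT19 in MKL-1, in MKL-2 and in WaGa. On chromosome 12 KRT8 and KRT18 adjoin each other at the end of the cluster, and the 7 rows before them, from KRT1 to KRT78, did not exceed 1.94 TPM in any line.

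**Figure D4:**
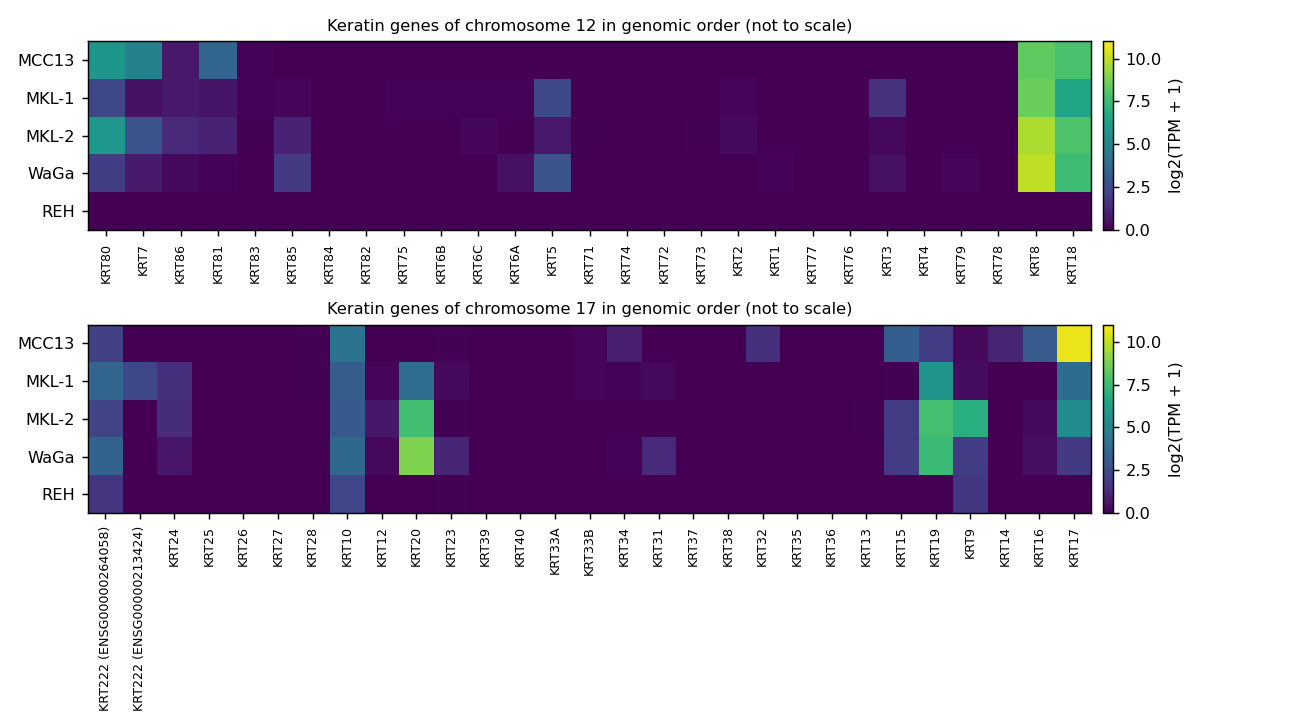
Heat map of log2(TPM + 1) for the keratin rows of chromosome 12 (27 rows, top) and chromosome 17 (29 rows, bottom) in genomic order, not to scale, with the 5 lines as rows. High values sit in KRT8 and KRT18 at the end of the chromosome 12 cluster and in KRT20, KRT19, KRT9 and KRT17 on chromosome 17. KRT8 and KRT18 are high in all 4 Merkel cell carcinoma lines, KRT20 and KRT19 most in MKL-2 and WaGa, KRT9 in MKL-2 and KRT17 in MCC13.

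Proteins that tie keratin filaments to junctions or regulate them were compared in the same fits. Of the genes named below as called, all except PLEC reached 1 TPM on 1 side of the comparison only, so the filter kept them through the side on which they are high and their calls are descriptions. Uncalled genes that reached 1 TPM on 1 side only were kept in the same way, so the list medians below are descriptions too. Of 16 partner genes, all tested against REH, 1 was higher in the Merkel cell carcinoma lines and 1 lower. The shares over all genes tested there were 1.09% higher and 4.15% lower. PKP2, a desmosomal plakophilin, stood at 41.3 TPM in MCC13, with MKL-1 at 127 TPM, MKL-2 at 77.7 TPM and WaGa at 44.6 TPM, and was listed at 0 in REH (6.05 ± 0.74 (SE), limma, adjusted p = 0.0223). EVPL, envoplakin, stood at 0.063 to 0.581 TPM in the Merkel cell carcinoma lines, against 15.7 TPM in REH (-3.62 ± 0.40 (SE), limma, adjusted p = 0.0179). The median log2 difference of the partner genes was 1.29, against 0.18 over all genes.

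In MCC13, 1 of 15 tested partner genes was higher than in the other 3 lines and none was called lower by limma (2 at an unadjusted p under 0.05). The shares over all genes tested there were 6.47% higher and 2.47% lower. The median log2 difference of the partner genes was 0.04. PLEC, plectin, which links keratin and vimentin filaments to hemidesmosomes and actin, stood at 425 TPM in MCC13, with MKL-1 at 13.4 TPM, MKL-2 at 16.97 TPM and WaGa at 21.8 TPM (4.56 ± 0.37 (SE), limma, adjusted p = 0.0149). VIM, the mesenchymal intermediate filament gene, was at 3125 TPM in MCC13, with no more than 0.029 TPM in the other 3 Merkel cell carcinoma lines and 724 TPM in REH. DSP, desmoplakin, the anchor of keratins at desmosomes, stood at 35.8 TPM in MCC13, with MKL-1 at 0.013 TPM, MKL-2 at 114 TPM and WaGa at 0.063 TPM. MKL-1 and WaGa thus had KRT8 and KRT18 at high levels beside near-absent DSP transcripts.

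Of 21 epithelial and keratin gene regulators, 15 were tested in MCC13 against the other 3 lines, of which 2 were higher and 2 lower. All genes tested there had 6.47% called higher and 2.47% lower. TFAP2C, an AP-2 factor of epidermis, was at 97.6 TPM in MCC13, with no more than 0.041 TPM in the other 3 lines (6.604 ± 0.28 (SE), limma, adjusted p = 0.00855). The epithelial splicing regulators ESRP1 (-7.36 ± 0.36 (SE), limma, adjusted p = 0.00855) and ESRP2 (-3.47 ± 0.41 (SE), limma, adjusted p = 0.0321) were lower in MCC13, with ESRP1 listed at 0 in MCC13 against 139 to 214 TPM in the other 3, and ESRP2 at 0.715 TPM in MCC13 against 15.0 to 21.6 TPM. CDX2, a transcription factor of gut epithelium, was listed at 0 in all 4 Merkel cell carcinoma lines and stood at 0.308 TPM in REH. TP63, the regulator of basal keratinocytes, stood at 0.013 to 0.139 TPM in the Merkel cell carcinoma lines and at 1.69 TPM in REH, and was lower in the Merkel cell carcinoma lines (-1.32 ± 0.17 (SE), limma, adjusted p = 0.0259), the single call among 16 regulators tested there (none was called higher by limma, with 2 at an unadjusted p under 0.05). Against REH, 1.09% of all genes tested were called higher and 4.15% lower. The regulators' median log2 difference was -0.40 in MCC13 over the other 3 and 1.46 in the Merkel cell carcinoma lines over REH.

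**Figure D5:**
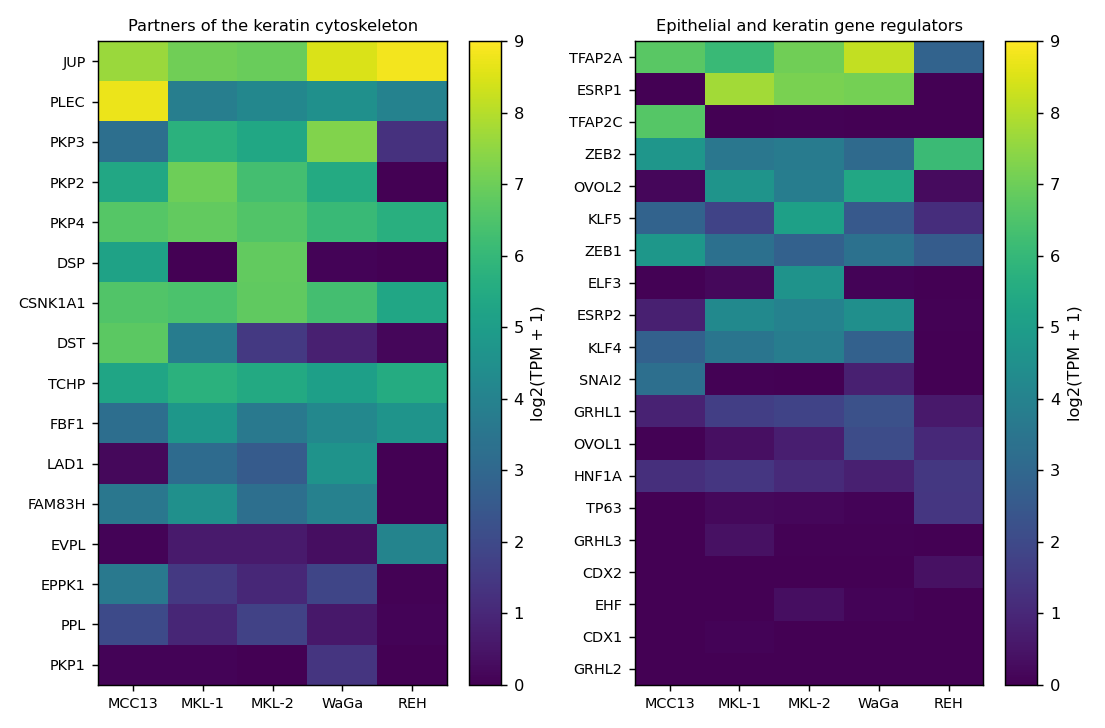
Heat map of log2(TPM + 1) for 16 partners of the keratin cytoskeleton (left) and epithelial and keratin gene regulators (right) in the 5 lines, ordered by their highest value. PLEC and TFAP2C are high in MCC13, ESRP1 is high in the other 3 Merkel cell carcinoma lines, and DSP is high in MKL-2 and MCC13.

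Of 12 cornified envelope genes 4 reached 1 TPM in some line, and none passed in either comparison (limma; 0 at an unadjusted p under 0.05 against REH, and 1, SPRR1A, in MCC13 against the other 3). SPRR1A, a small proline-rich envelope precursor, was listed at 0 in MCC13, with MKL-1 at 24.7 TPM, MKL-2 at 12.4 TPM and WaGa at 69.5 TPM, with a listed 0 in REH (MCC13 over the other 3, -4.86 ± 1.13 (SE), limma, adjusted p = 0.113). IVL, involucrin, and LOR, loricrin, were listed at 0 in all 5 lines. The median log2 difference of the 4 genes was -1.48 in MCC13 over the other 3 and 0.67 in the Merkel cell carcinoma lines over REH.

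Of 110 rows whose names start with KRTAP, the keratin-associated proteins of the hair matrix, 8 reached 1 TPM in some line. In MCC13, 2 of 7 tested rows were higher, KRTAP2-3 at 33.96 TPM against at most 0.002 TPM in the other 3 (5.13 ± 0.22 (SE), limma, adjusted p = 0.00855) and KRTAP2-4 at 3.11 TPM against at most 0.001 TPM (2.04 ± 0.12 (SE), limma, adjusted p = 0.00941). All genes tested in MCC13 against the other 3 had 6.47% called higher and 2.47% lower. KRTAP2 genes are near-identical copies, so the split between them is uncertain. KRTAP5-AS1, an antisense RNA and not a protein of the family, was lower in MCC13 with 0.196 TPM, the other 3 lines lying between 11.1 and 21.1 TPM (-3.78 ± 0.53 (SE), limma, adjusted p = 0.0467). KRTAP5-9 was lower in the Merkel cell carcinoma lines at 0.035 to 0.268 TPM, against 1.77 TPM in REH (-1.31 ± 0.21 (SE), limma, adjusted p = 0.0435). Against REH, 4.15% of all genes tested were called lower. In both comparisons each tested row reached 1 TPM on 1 side only, so the filter largely set the sign of its difference. The medians of the tested rows, -0.72 in MCC13 over the other 3 and 0.91 against REH, are descriptions.

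Keratin pseudogenes can take reads of their parents. The 140 pseudogene rows summed to 42.2 TPM in MCC13, with MKL-1 at 40.8 TPM, MKL-2 at 39.1 TPM and WaGa at 37.4 TPM, and REH at 18.2 TPM. Of these rows 14 reached 1 TPM in some line. KRT8P12 was the highest of them in every line except WaGa, at 26.2 TPM in MCC13, with MKL-1 at 15.3 TPM, MKL-2 at 6.38 TPM and WaGa at 7.81 TPM, and REH at 6.98 TPM, although it shares 1.45% of its 50-base runs with other genes. KRT8P3, which shares 28.2% of its runs with KRT8, stood at 3.13 TPM in MCC13, with MKL-1 at 1.31 TPM, MKL-2 at 4.98 TPM and WaGa at 9.20 TPM, and had a listed 0 in REH. KRT8P32 reached 4.82 TPM in MKL-1 and KRT18P34 4.32 TPM, and KRT17P1, KRT8P10, KRT8P30, KRT8P33, KRT8P46, KRT18P5 and KRT18P63 did not exceed 2.90 TPM in any line.

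Among the 12 pseudogenes tested in MCC13 against the other 3, KRT8P14, which reached 1 TPM in MCC13 alone, was higher at 2.39 TPM against at most 0.047 TPM (1.73 ± 0.12 (SE), limma, adjusted p = 0.0113), and among the 14 tested against REH, KRT18P27, which reached 1 TPM in REH alone, was lower in the Merkel cell carcinoma lines at no more than 0.008 TPM, against 1.502 TPM in REH (-1.32 ± 0.14 (SE), limma, adjusted p = 0.0170). The filter thus kept both through the line in which they are high, and these calls are descriptions. The shares called over all genes tested were 6.47% higher in MCC13 and 4.15% lower against REH. The pseudogenes' medians were -0.55 and 0.67. KRT8 shares 10.1% and KRT18 14.3% of its 50-base runs with other genes.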

How the data were processed

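RNA of 5 cell lines, 1 library each, was measured by RNA sequencing of oligo-dT enriched mRNA with a directional kit, per the labels' protocols. The authors deposited TPM values per gene in 1 table for 57905 genes. Tools named in the submitters' processing notes are STAR 2.4.5b, SAMtools 0.1.19, StringTie 1.3.5 and bcl2fastq 2.20, and the genome builds GRCh37 and hg19. The annotation used is not given there. TPM values keep no read depth, so no counting interval can be given, and a few abundant genes move all others. The 2 columns that match no sample of the series, 1 per deposited table, and the PAX5 exon table were not used.

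Lines were compared by limma 3.58.1 (R 4.3.3) on log2(TPM + 1) values (with a variance trend, 2-sided, called at a Benjamini-Hochberg adjusted p under 0.05) over every gene that reached 1 TPM in a compared line. A line standing alone was taken to vary like the others. This scale understates changes of low genes. The p-values measure the spread between lines. The steps were run on simulated data made of well expressed genes, with the same spread in every line and large changes. That run says nothing of calls among low genes or genes that vary widely between lines. Alternatives were the pseudocount, the filter, quantile normalization, no variance trend, and each line left out. Named are keratin rows and keratin pseudogenes that reached 1 TPM in some line, and members of the other lists that passed. A regulator that passed is not reported here and stays in the tests and counts. KRT1, KRT6A, KRT6B, KRT6C, KRT12, KRT78, ATOH1, PAX5, EBF1, VIM, MTX2, DSP, CDX2, SPRR1A, IVL and LOR were named after their values were seen. The members, lists and comparisons were chosen with earlier results of these data known. Gene order and 50-base runs (same strand) come from GENCODE 29, in which all 56 identifiers were found, and upstream windows from RefSeq (GRCh38.p14). No coordinates of the authors' build were used.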

Additional observations from a re-analysis of the deposited data

Results flagged for a closer look

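Among the 23 keratin rows at 1 TPM or more in some line, 4 had a line standing apart from the other 3 Merkel cell carcinoma lines by Dixon's criterion on log2(TPM + 1), in which the gap to the nearest line is divided by the whole range and compared with its critical value. Chance flags about 1 in 20 groups, a rate that does not hold for tied zeros. In KRT32, KRT14 and the KRT222 row the other 3 lines are all listed at 0, so once a line reached 1 TPM the ratio had to be 1.0 whatever its level, and these 3 restate the filter. KRT16 too was kept only through MCC13. MCC13 was the highest line for KRT32 (ratio 1.0, 1.82 TPM against a listed 0 in the other 3), KRT14 (ratio 1.0, 1.19 TPM against a listed 0 in the other 3) and KRT16 (ratio 0.862, 7.88 TPM against at most 0.352 TPM). MKL-1 was the highest line for the KRT222 row ENSG00000213424 (ratio 1.0, 4.29 TPM against a listed 0 in the other 3).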

How the results depend on the processing

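KRT8 and KRT18 were the keratins called higher against REH (2), and with each line left out in turn the count ran from 0 to 3. The 3 keratins called higher in MCC13 became 0 among genes averaging 5 TPM or more, a filter that the 3 do not pass, 1 without a variance trend, and 0 (lowest and highest) with a line left out. Of the partner, regulator, cornified envelope and keratin-associated genes, the 1 called higher against REH became 3 with a pseudocount of 0.1 TPM, 0 with 5 TPM, 2 with no filter, 2 with quantile normalization, 2 without a variance trend and 0 to 4 with a line left out. The 3 called lower became 0 with a pseudocount of 0.1 TPM, 10 with no filter, 0 at 5 TPM or more, 1 without a variance trend and 0 to 4 with a line left out. In MCC13 the 5 called higher became 16 with no filter and 0 with a line left out, and the 3 called lower became 1 with a pseudocount of 5 TPM and 0 with a line left out. Fits with a line left out have fewer residual degrees of freedom. The cause of the other changes was not tested. The KRT9 difference against REH turned to -0.021 with a pseudocount of 0.1 TPM and ran from -0.93 (without MKL-2) to 1.297 (without MCC13) with a line left out, and that of KRT86 in MCC13 to 0.15 with 0.1 TPM and 0.24 with quantile normalization. None of these 4 was called. The keratin sum averaged 1613 TPM over the 4 Merkel cell carcinoma lines and 814 TPM without KRT8 and KRT18, and the ratio of type I to type II 1.76 and 21.0. The highest ratio was then that of WaGa, at 49.2, against 17.9 in MCC13. Over all genes, 243 higher and 923 lower calls against REH became 403 and 482 with a pseudocount of 0.1 TPM, 151 and 1372 with 5 TPM, 348 and 3346 with no filter, 160 and 128 at 5 TPM or more and 1038 and 1790 without MCC13. In MCC13, 1340 and 512 became 983 and 711 with 0.1 TPM, 2807 and 505 with no filter and 543 and 624 at 5 TPM or more. Quantile normalization moved the median of all genes to 0.03, against 0.18, and to -0.13, against -0.30. Leaving out MKL-1, MKL-2 or WaGa left 0 calls in limma, with 3194 to 4978 genes at an unadjusted p under 0.05. No paired analysis was possible because each library is a different line, which leaves nothing to pair.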
